A study of Mus musculus with 23 samples.

Results

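Tumours that arose in the mouse cerebellum after Cas9 and a guide RNA had disrupted Ptch1 were compared with granule neuron precursors (GNPs), the normal cell type from which this tumour is held to grow. The comparison used 6 of the 23 arrays of the series, 3 from CRISPR-Ptch1 tumours and 3 from GNPs, which were the arrays whose labels name these groups. Other arrays cited below are of further medulloblastoma models and of normal adult cerebellum. Per the study the models are MERP (Atoh1-CreERT2 with Ptch1 fl/fl), germline Ptch1+/- and the Mycn-driven GTML. The tumours were of 2 kinds. EP tumours (2 arrays) came from wild-type CD1 embryos electroporated in utero with a plasmid carrying Cas9 and a guide against the second exon of Ptch1. The TF tumour (1 array) came from a newborn Trp53-/- mouse whose cerebellum was transfected in vivo with such a plasmid in polyethylenimine (PEI). The labels give CD1 as the strain of every sample, whereas per the study's methods mice used for transfection were C57BL/6N. The GNPs were non-neoplastic cells with no disruption of Ptch1, also labelled CD1, that were isolated between postnatal days 4 and 7. Cas9 reached only some of the cells of each cerebellum, so a tumour sample can hold edited and unedited cells. Per the study, however, genome sequencing of EP and TF tumours found the wild-type form of the targeted gene strongly depleted or missing. The study takes this as a sign that both alleles were disrupted in the tumours. Which arrays came from the sequenced tumours is not given in the sources used here. The labels give no age for the tumours.

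Sonic hedgehog is released by Purkinje cells and keeps granule neuron precursors dividing in the outer layer of the early postnatal cerebellum. Its receptor Ptch1 holds the membrane protein Smo inactive; once the ligand binds, Smo signals through the primary cilium to the GLI transcription factors, and Ptch1 is itself one of their target genes. Precursors that leave the cell cycle migrate inwards past the Purkinje cells and mature into granule neurons, whereas loss of Ptch1 keeps the pathway on and can give medulloblastoma.

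Expression was measured as log2 RMA values, that is, the log2 of a normalised array signal, with 1 probe set for each of 18194 genes. A difference is always CRISPR-Ptch1 minus GNPs on this log2 scale, so that a difference of 1 is 2-fold. Values of single arrays are given in the order EP 1, EP 2 and TF for tumours and 1 to 3 for GNPs. The test was limma's moderated test in a model of all 23 arrays, with p-values adjusted by Benjamini-Hochberg over all 18194 genes, and a gene was called at an adjusted p under 0.05. The lower quartile of all probe sets was 4.401 to 4.606 depending on the array, and a group below this level is called near background. The study's supplement lists tumours by animal without tying an animal to an array, and the sources used here name no animals for the GNPs. A p-value thus reflects the spread of arrays within groups, which in GNPs may be technical. This spread was pooled over all 23 arrays, including groups that were not compared. With only the compared arrays, 78.1% of the called genes were called again. Technical measures also separated the groups. The median over the genes was 7.46 to 7.55 in tumours and 7.56 to 7.60 in GNPs. Bacterial control transcripts averaged 11.04 to 11.36 in tumours and 10.63 to 10.85 in GNPs, and the actin 3' minus 5' probe difference was 0.46 to 0.48 in tumours and 0.59 to 0.83 in GNPs. Per the methods RNA of tumours and GNPs went to the same array facility, and whether it was processed together is not given in the sources used here. Tumour tissue was compared with isolated cells of young mice, so that disease, age and preparation go together with the group and cannot be told apart. The number of arrays limits the precision.

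The tumours differed from GNPs at 2500 of the 18194 genes (13.7%), of which 1053 (5.79%) were higher and 1447 (7.95%) lower in tumours. The median difference over all genes was 0.00. At least 2-fold differences were seen at 420 higher and 788 lower genes, and at least 8-fold differences at 28 higher and 57 lower genes. Among the called genes, 88 of the higher ones were near background in GNPs and 204 of the lower ones were near background in tumours. The 3 tumour values and the 3 GNP values did not overlap at 36.1% of all genes, with tumours above at 17.1% and below at 19%. Leaving out 1 array moved the number of higher genes most, to 662 without EP 1, 685 without GNP 1 and 697 without GNP 3. With the TF tumour left out 1164 genes were higher and 1403 lower, and with the TF tumour alone against GNPs 602 were higher and 1027 lower. Of the 236 called genes of the lists and of the 15 most changed in each direction, 166 stayed called whichever of the 6 arrays was left out.

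Ptch1, the targeted receptor (chr13:63508328-63573460, GRCm38), gave a signal above GNPs in all 3 tumours. It measured 13.09, 12.78 and 13.07 in tumours against 12.04, 11.76 and 11.67 in GNPs, a difference of 1.16 (SE 0.23, adjusted p = 0.001), which is 2.23-fold. The EP and TF tumours were alike, and no tumour value overlapped a GNP value. This probe set does not test whether the coding sequence is intact, and the other 2 probe sets of Ptch1 were much dimmer, at 4.91, 4.89 and 6.96 in tumours against 6.30, 5.51 and 5.15 in GNPs (difference -0.07) for the more variable of them. Trp53 was not analysed here.

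The lists of hedgehog genes were called at shares no higher than the 13.7% of all genes. Ptch1 was the only called gene of 9 receptors and co-receptors (11.1%, 1 higher, none lower, median difference -0.05). Hhip, a decoy receptor that is also a target, measured 8.76, 8.0 and 9.79 in tumours against 7.70, 7.31 and 7.05 in GNPs without passing the test (1.5, SE 0.56, adjusted p = 0.0863), although the groups did not overlap. Smo, the signal transducer, measured 10.41, 10.16 and 10.79 in tumours against 10.75, 10.76 and 10.72 in GNPs (-0.29, SE 0.28, adjusted p = 0.59). Of 13 GLI factors and regulators none was called (median -0.04). Gli1, an activator and target, measured 9.47, 9.01 and 10.04 in tumours against 9.52, 9.04 and 8.91 in GNPs, with the TF tumour above and both EP tumours within the GNP range. Gli2, the main activator, lay just below GNPs in all tumours, at 11.26, 10.96 and 11.59 in tumours against 11.61, 11.62 and 11.61 in GNPs (-0.34, SE 0.23, adjusted p = 0.384). The ligands Shh, Ihh and Dhh stayed between 4.62 and 5.90 in all 6 samples.

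Among 15 hedgehog target genes of the granule lineage 1 was higher and 1 lower (median -0.06). The share called, 13.3%, was near the 13.7% of all genes. The groups did not overlap at 9 of the 15, against 36.1% of all genes. Ntrk3, which encodes the neurotrophin-3 receptor TrkC, was the outstanding member at 11.68, 11.15 and 11.24 in tumours against 8.78, 8.62 and 8.42 in GNPs. Every tumour stood more than 2 log2 units above every GNP sample, with a difference of 2.75 (SE 0.27, adjusted p = 1.9e-07), and 7 of its 8 probe sets had a difference above 0. Nrp2, a semaphorin and VEGF co-receptor, was lower (-0.79), a call that was lost without TF or GNP 1 (adjusted p = 0.116 to 0.126). Mycn, which drives precursor division downstream of hedgehog, measured 12.37, 12.07 and 12.57 in tumours against 11.79, 11.67 and 11.78 in GNPs. All tumours exceeded all GNPs but the difference of 0.59 (SE 0.23, adjusted p = 0.0937) did not pass. Cdk6, a G1 kinase, was likewise above in every tumour at 11.48, 11.24 and 12.49 in tumours against 10.30, 10.46 and 10.54 in GNPs (1.3, SE 0.50, adjusted p = 0.0959). Sfrp1, a secreted Wnt antagonist, spanned the GNP values, with 10.96, 10.32 and 12.37 in tumours against 11.55, 11.44 and 11.50 in GNPs, and its 5 probe sets gave differences between -0.48 and 1.81.

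**Figure D1:**
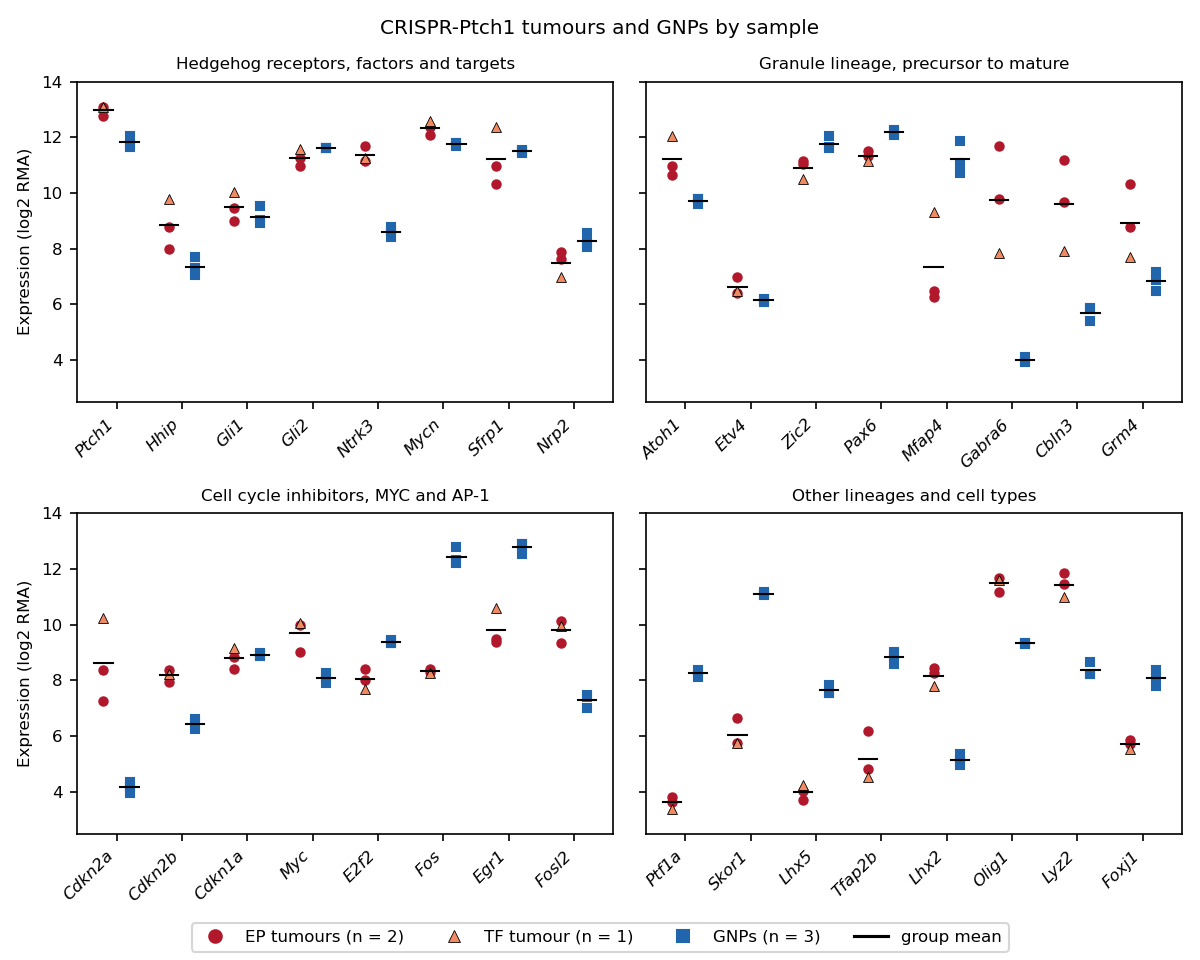
Log2 RMA expression of named genes from 4 groups in each CRISPR-Ptch1 tumour (circles EP, triangles TF) and each GNP sample (squares), with group means as lines. Ptch1 and Ntrk3 lie above the GNP samples in every tumour while Gli1 overlaps them, and Fos, Ptf1a and Foxj1 lie below them in every tumour.

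Genes that mark granule neuron precursors moved in both directions. Of 19 measured, 2 were higher and 6 lower in tumours (median -0.27). Atoh1, the transcription factor that specifies the granule lineage, measured 10.98, 10.63 and 12.04 in tumours against 9.59, 9.77 and 9.77 in GNPs, a difference of 1.51 (SE 0.31, adjusted p = 0.00166). The TF tumour was highest and all tumours exceeded all GNPs. Etv4, an ETS factor, was also higher but only just (0.47, SE 0.16, adjusted p = 0.0497), and lost its call without EP 2, GNP 1, GNP 2 or GNP 3 (adjusted p = 0.0907 to 0.285). Mfap4, an extracellular matrix protein, was by far the most reduced member at 6.47, 6.27 and 9.31 in tumours against 11.85, 11.07 and 10.71 in GNPs. Here the EP tumours lay about 3 units below the TF tumour, and the difference from GNPs was -3.86 (SE 0.52, adjusted p = 1.9e-05). Pax6, a homeodomain factor of the rhombic lip and granule cells, measured 11.32, 11.52 and 11.16 in tumours against 12.28, 12.07 and 12.18 in GNPs (-0.84, SE 0.18, adjusted p = 0.00229). The zinc-finger factors Zic2 (-0.87) and Zic5 (-0.56), the homeobox gene Meis2 (-0.85) and Insm1 (-0.97), a factor of newly formed neurons, were lower as well. The call of Zic2 was lost without GNP 1 (adjusted p = 0.05). Zic5 was not called without EP 1, TF, GNP 1, GNP 2 or GNP 3 (adjusted p = 0.0715 to 0.136), Meis2 not without EP 1, TF, GNP 1, GNP 2 or GNP 3 (adjusted p = 0.0576 to 0.137), and Insm1 not without EP 1, EP 2, GNP 1, GNP 2 or GNP 3 (adjusted p = 0.0909 to 0.142).

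Of 21 genes of differentiating and migrating granule neurons none was higher and 3 were lower (median -0.31). The share called, 14.3%, was near the 13.7% of all genes. Unc5c, a netrin receptor that guides granule cells, measured 8.70, 9.43 and 7.44 in tumours against 11.91, 11.23 and 11.29 in GNPs, a difference of -2.95 (SE 0.42, adjusted p = 3.36e-05). Neurod2, a factor of maturing neurons, measured 8.26, 9.26 and 7.47 in tumours against 9.63, 9.65 and 9.73 in GNPs (-1.34, SE 0.31, adjusted p = 0.00435). In both genes the TF tumour was lowest and no tumour reached the GNP range. Sema6a, a guidance ligand needed for granule cell migration, was lower by a difference of -1.01 (SE 0.32, adjusted p = 0.0364), but not without TF, GNP 1, GNP 2 or GNP 3 (adjusted p = 0.054 to 0.217).

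Among genes of mature granule neurons more were higher than lower. Of 18 measured, 6 were higher and 1 lower (median 0.59), and the mean over the list was 7.53 to 9.62 in the tumours and 7.27 to 7.38 in GNPs. Gabra6, the GABA-A receptor subunit that marks mature granule cells, gave the largest positive difference of all called genes and measured 9.77, 11.67 and 7.84 in tumours against 4.13, 3.93 and 3.93 in GNPs. It was near background in GNPs and spread widely among the tumours, with EP 2 highest and TF lowest. The difference was 5.77 (SE 0.67, adjusted p = 2.31e-06). Its other, dimmer probe set had a difference of 3.12. Cbln3, a secreted synaptic protein of granule cells, measured 9.69, 11.19 and 7.93 in tumours against 5.41, 5.89 and 5.83 in GNPs (3.89, SE 0.51, adjusted p = 1.32e-05). The metabotropic glutamate receptor Grm4 measured 8.76, 10.33 and 7.71 in tumours against 6.47, 6.89 and 7.16 in GNPs (2.10, SE 0.46, adjusted p = 0.00326), and the GABA-A subunit Gabrd measured 6.37, 8.16 and 5.08 in tumours against 4.30, 4.57 and 4.26 in GNPs (2.16, SE 0.45, adjusted p = 0.00201). All 4 genes had the same order among tumours. The calcium-binding proteins Calb2 (2.12) and Vsnl1 (3.56) followed, and their calls were lost without EP 1, EP 2, GNP 1 or GNP 3 (adjusted p = 0.0518 to 0.154) for Calb2 and without EP 1, EP 2, GNP 1 or GNP 3 (adjusted p = 0.0652 to 0.161) for Vsnl1. The lower gene was Rab3a, a GTPase of synaptic vesicles (-0.60), which lost its call without EP 2, TF, GNP 2 or GNP 3 (adjusted p = 0.0551 to 0.0629) and whose other probe set had a difference of 0.17.

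Purkinje cell genes were higher at 7 of 11 members with none lower (median 1.49). Pcp2, a Purkinje-specific G protein regulator, measured 9.51, 11.33 and 8.24 in tumours against 7.30, 7.18 and 7.21 in GNPs (2.47, SE 0.60, adjusted p = 0.00676). Ppp1r17, a phosphatase inhibitor of Purkinje cells, measured 7.61, 9.27 and 6.15 in tumours against 4.64, 4.40 and 4.52 in GNPs (3.16, SE 0.68, adjusted p = 0.00268), and the glutamate transporter Slc1a6 measured 7.60, 9.00 and 7.31 in tumours against 6.05, 6.35 and 6.28 in GNPs (1.74, SE 0.38, adjusted p = 0.00269). The order was again EP 2, EP 1 and TF. Car8 (1.93), Rora (1.42) and Pcp2 were not called without EP 2, at adjusted p-values of 0.0576, 0.0623 and 0.0579. The parvalbumin gene Pvalb (2.58) was not called without EP 1, EP 2, GNP 1, GNP 2 or GNP 3 (adjusted p = 0.0656 to 0.17). Foxp2, a transcription factor of Purkinje cells, had another pattern at 9.22, 9.21 and 9.86 in tumours against 7.87, 8.03 and 7.92 in GNPs. It was highest in TF, gave 1.49 (SE 0.30, adjusted p = 0.0014), and all 6 of its probe sets had a difference above 0.

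In adult cerebellum the list means were 11.36 for mature granule genes and 11.97 for Purkinje genes, above every tumour and GNP sample, and 15 of 18 and 10 of 11 of their members exceeded both the MERP and the Ptch1+/- tumours, which are other medulloblastoma models of the series, by 2-fold or more in adult cerebellum. The same pattern was found at 12 of 14 genes of astrocytes and Bergmann glia, all 11 myelin genes and 15 of 18 genes of synaptic vesicles and release, lists with 3, 0 and 2 genes higher in CRISPR-Ptch1 tumours. Genes with this adult pattern made up 12.1% of all genes, 25% of those higher and 20% of those lower in CRISPR-Ptch1 tumours, and without them 790 genes were higher and 1157 lower. Adult cerebellum adjoins such tumours, and the part of adjoining tissue in these differences was not tested. In such bulk samples fewer cells of a type and less RNA per cell cannot be told apart.

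Genes for the synapse moved less. Of 18 synaptic vesicle and release genes 2 were higher and none lower (median 0.31), a share of 11.1% against 13.7% of all genes. The SNARE protein Snap25 measured 11.87, 12.89 and 11.03 in tumours against 11.00, 11.01 and 11.06 in GNPs (0.91, SE 0.28, adjusted p = 0.0349). The calcium sensor Syt2 measured 6.86, 8.07 and 5.62 in tumours against 5.44, 5.54 and 5.62 in GNPs (1.32, SE 0.40, adjusted p = 0.0326). In both genes the TF tumour lay among the GNPs and only the EP tumours exceeded them. Both calls were lost without any of the arrays other than TF. Of 22 neurotransmitter receptors 5 were higher and 1 lower (median 0.49). Besides Gabra6, Gabrd and Grm4 these were the GABA-A subunit Gabrb2, at 8.57, 9.83 and 7.59 in tumours against 6.42, 6.58 and 6.60 in GNPs (2.13, SE 0.40, adjusted p = 0.000648), and the AMPA receptor subunit Gria4 (1.03, lost without EP 1, EP 2, GNP 2 or GNP 3 with an adjusted p = 0.061 to 0.122). The metabotropic receptor Grm3 fell, at 7.80, 8.24 and 6.72 in tumours against 10.35, 10.36 and 9.70 in GNPs (-2.55, SE 0.52, adjusted p = 0.00158).

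The inhibitory lineage of the cerebellum was much lower in tumours. Of 17 of its genes 9 were lower and none higher (median -1.23), and the mean over the list was 5.38 to 6.01 in tumours and 7.31 to 7.41 in GNPs. Ptf1a, which specifies inhibitory neurons in the ventricular zone, measured 3.82, 3.65 and 3.38 in tumours against 8.11, 8.38 and 8.28 in GNPs, near background in all tumours, with a difference of -4.63 (SE 0.29, adjusted p = 2.5e-10). Skor1, a transcriptional corepressor, gave the most negative difference of all genes with no overlap, at 5.73, 6.63 and 5.75 in tumours against 11.11, 11.15 and 11.07 in GNPs (-5.07, SE 0.65, adjusted p = 9.36e-06). Lhx5, a LIM homeobox factor, measured 3.71, 4.04 and 4.24 in tumours against 7.55, 7.83 and 7.55 in GNPs (-3.65, SE 0.16, adjusted p = 2.44e-12). Tfap2a (-3.90) and Tfap2b (-3.64), which are AP-2 factors of inhibitory neurons, and the proneural gene Neurog2 (-3.91) were lower by similar amounts. The vesicular GABA transporter Slc32a1 (-1.70) was lower too, but not without EP 1 or TF (adjusted p = 0.0507 to 0.0741). The list mean was 5.0 in MERP and 5.04 in Ptch1+/- tumours, so the GNP samples stood above these tumour groups also.

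Of 8 genes of unipolar brush cells and the rhombic lip 1 was higher and 1 lower. Lhx2, a LIM homeobox factor better known from forebrain and hair follicle, measured 8.43, 8.26 and 7.80 in tumours against 4.96, 5.10 and 5.35 in GNPs, with every tumour about 3 units above the GNPs (3.02, SE 0.29, adjusted p = 1.48e-07). Eomes, the factor that marks unipolar brush cells, measured 7.64, 7.82 and 5.03 in tumours against 9.62, 9.98 and 9.77 in GNPs and was lowest in TF (-2.96, SE 0.47, adjusted p = 0.000112). Several transcription factors outside the lists were among the most increased genes. Foxa2, a forkhead factor of the floor plate and endoderm, measured 9.77, 9.08 and 8.89 in tumours against 4.70, 5.11 and 4.75 in GNPs (4.39, SE 0.43, adjusted p = 2.17e-07), and Pou4f1, a POU factor of sensory neurons, measured 8.78, 9.20 and 9.15 in tumours against 5.50, 5.05 and 5.17 in GNPs (3.80, SE 0.63, adjusted p = 0.000194). Neither gene overlapped between groups or differed by much among the tumours.

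None of 25 DNA replication genes and none of 25 mitosis genes was called (median -0.10 and -0.14), and the means over the lists were 10.27 to 10.54 in tumours and 10.46 to 10.51 in GNPs for replication and 10.40 to 10.74 in tumours and 10.66 to 10.68 in GNPs for mitosis. Among 19 G1 cyclins, kinases and E2F factors none was higher and 3 were lower. The share called, 15.8%, was near the 13.7% of all genes. E2f2, an activator of S-phase genes, measured 8.01, 8.40 and 7.70 in tumours against 9.34, 9.35 and 9.46 in GNPs (-1.34, SE 0.21, adjusted p = 9.6e-05). The cyclin Ccne1 (-0.68) and the repressor E2f7 (-0.77) were lower to a lesser extent, and lost their calls without GNP 3 (adjusted p = 0.0597) for Ccne1 and without TF or GNP 2 (adjusted p = 0.05 to 0.0523) for E2f7.

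Of 7 CDK inhibitors 2 were higher and none lower, and both encode INK4 inhibitors of the G1 kinases. Cdkn2a, which encodes p16Ink4a and p19Arf, measured 7.26, 8.36 and 10.22 in tumours against 3.97, 4.34 and 4.19 in GNPs. It was near background in GNPs, lowest among the tumours in EP 1 and highest in TF, with a difference of 4.45 (SE 0.79, adjusted p = 0.000429). EP minus TF was -2.41, and the MERP tumours alone spanned 5.33 to 10.23. Its neighbour Cdkn2b, which encodes p15Ink4b, measured 7.93, 8.38 and 8.23 in tumours against 6.24, 6.49 and 6.62 in GNPs with little spread among the tumours (1.73, SE 0.28, adjusted p = 0.000174). The other INK4 genes, Cdkn2c (0.14) and Cdkn2d (-0.28), were not called. Of 23 genes around p53 and its targets none was higher and 2 were lower, namely Perp, a desmosome gene induced by p53, at 5.83, 5.93 and 5.91 in tumours against 8.14, 8.01 and 7.87 in GNPs (-2.12, SE 0.35, adjusted p = 0.000194), and the p53 homologue Trp73, at 5.56, 5.63 and 5.67 in tumours against 7.31, 6.90 and 7.03 in GNPs (-1.46, SE 0.14, adjusted p = 1.9e-07). For both genes the TF tumour lay close to the EP tumours. The share called among the 23 genes, 8.7%, was below the 13.7% of all genes.

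Of 11 genes of the MYC network 3 were higher and none lower (median 0.38), against 5.79% higher over all genes. Of the 11 genes, 8 lay above GNPs without overlap, against 17.1% of all genes. Myc itself measured 9.98, 9.01 and 10.07 in tumours against 7.91, 8.27 and 8.07 in GNPs, a difference of 1.60 (SE 0.34, adjusted p = 0.00258). The antagonist Mxi1 (0.50) and the MAX partner Mga (0.56) rose less, and were not called without EP 1, EP 2, GNP 1, GNP 2 or GNP 3 (adjusted p = 0.069 to 0.153) for Mxi1 and without EP 1, TF, GNP 2 or GNP 3 (adjusted p = 0.0677 to 0.114) for Mga. The other 4 probe sets of Mga had differences between -0.27 and 0.46. None of 20 ribosome biogenesis genes was called (median 0.23).

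Immediate early genes, which are induced within minutes of a stimulus, were lower at 7 of 16 members and higher at 1 (median -0.73). Fos, the AP-1 subunit, measured 8.31, 8.41 and 8.25 in tumours against 12.31, 12.77 and 12.20 in GNPs. The 3 tumours were close together and far below every GNP sample (-4.11, SE 0.46, adjusted p = 1.51e-06). Egr1, a zinc-finger factor induced by the same signals, measured 9.47, 9.39 and 10.60 in tumours against 12.88, 12.89 and 12.54 in GNPs (-2.95, SE 0.35, adjusted p = 2.82e-06), and Ier2 measured 9.63, 9.71 and 10.29 in tumours against 10.82, 11.22 and 10.93 in GNPs (-1.11, SE 0.18, adjusted p = 0.000203). Klf4, a Kruppel-like factor (-2.23), Dusp1, a MAP kinase phosphatase (-1.11), the nuclear receptor Nr4a1 (-0.96) and the synaptic gene Arc (-0.64) were also lower. The call of Klf4 was lost without EP 1, EP 2, GNP 1 or GNP 2 (adjusted p = 0.0585 to 0.0798), and that of Dusp1 without TF or GNP 2 (adjusted p = 0.091 to 0.0927). Nr4a1 was not called without GNP 2 (adjusted p = 0.0585), nor Arc without EP 1, TF, GNP 1 or GNP 3 (adjusted p = 0.0643 to 0.119). Fosl2, the AP-1 subunit Fra-2, moved against the rest at 10.14, 9.36 and 9.95 in tumours against 7.46, 7.38 and 6.99 in GNPs, with every tumour above every GNP sample (2.54, SE 0.31, adjusted p = 4.64e-06). Among other tumour models of the series Fos averaged 12.31 in MERP and 12.91 in Ptch1+/- tumours, near the GNPs, and 8.14 in the Mycn-driven GTML tumours, near the CRISPR-Ptch1 tumours.

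BMP signalling, which counters hedgehog in precursors and promotes their differentiation, was represented by lower levels at 9 of 17 members, with none higher (median -0.87) and all 9 calls kept whichever array was left out. Among the ligands Bmp6 measured 5.08, 5.56 and 5.17 in tumours against 8.38, 8.09 and 7.85 in GNPs (-2.84, SE 0.25, adjusted p = 5.11e-08) and Bmp4 measured 5.41, 5.60 and 5.26 in tumours against 7.75, 7.38 and 7.48 in GNPs (-2.11, SE 0.16, adjusted p = 4.79e-09), and Bmp2 (-1.10) and Bmp7 (-0.83) were lower as well. The extracellular antagonist Chrd (-1.36), the pseudoreceptor Bambi (-1.68) and the inhibitory SMADs Smad6 (-1.62) and Smad7 (-1.05) fell with them. Id1, an inhibitor of bHLH factors and a direct BMP target, measured 9.22, 8.72 and 9.49 in tumours against 10.65, 10.47 and 10.28 in GNPs (-1.33, SE 0.23, adjusted p = 0.000346). For each of these genes the tumours lay below all GNPs.

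In the Wnt list 2 of 17 genes were higher and 3 lower (median -0.18). Sfrp2, a secreted Wnt modulator, measured 10.57, 11.55 and 10.89 in tumours against 9.72, 9.23 and 9.08 in GNPs (1.66, SE 0.37, adjusted p = 0.00339). The targets Sp5, at 6.15, 7.13 and 6.04 in tumours against 9.11, 9.59 and 9.63 in GNPs (-3.0, SE 0.38, adjusted p = 7.82e-06), and Lef1, at 6.04, 6.47 and 6.54 in tumours against 8.29, 7.75 and 8.0 in GNPs (-1.66, SE 0.22, adjusted p = 1.52e-05), were lower in all tumours. Axin2, the feedback inhibitor, was lower by a small difference (-0.49, SE 0.16, adjusted p = 0.0446) that was lost whichever array was left out. Lgr5, an R-spondin receptor, measured 8.08, 8.40 and 6.56 in tumours against 7.07, 6.49 and 6.36 in GNPs, with the TF tumour inside the GNP range, and its call was lost without EP 1, EP 2, GNP 2 or GNP 3 (adjusted p = 0.13 to 0.248).

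Notch genes were split, with 2 of 20 higher and 4 lower (median -0.18). The target Hey1 measured 11.79, 11.44 and 12.39 in tumours against 10.71, 11.01 and 10.95 in GNPs (0.99, SE 0.20, adjusted p = 0.00172). The receptor Notch3 was lower at 7.65, 7.77 and 7.40 in tumours against 9.00, 8.66 and 8.46 in GNPs (-1.10, SE 0.22, adjusted p = 0.00115). Notch1 was lower too (-1.11), but not without EP 1, EP 2, GNP 1 or GNP 2 (adjusted p = 0.0743 to 0.169). The ligand Dll1 (-1.51) lost its call without GNP 1 (adjusted p = 0.0678), and the target Hey2 (-0.74) without EP 1, EP 2, GNP 1 or GNP 3 (adjusted p = 0.0927 to 0.177). Jag1, another ligand, measured 10.16, 9.43 and 10.71 in tumours against 9.49, 9.14 and 8.87 in GNPs, and its call of 0.94 (SE 0.30, adjusted p = 0.0401) was lost without EP 1, TF, GNP 2 or GNP 3 (adjusted p = 0.0997 to 0.2). EP 2 overlapped the GNPs.

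Of 18 fetal and infant growth genes, many of which are imprinted, 5 were lower and none higher (median -0.62). Without overlap 11 lay below GNPs, against 19% of all genes. Igf2, a growth factor of hedgehog-driven precursors, measured 9.48, 8.40 and 11.17 in tumours against 12.28, 12.03 and 11.74 in GNPs. The TF tumour came nearest to the GNPs and the difference of -2.33 (SE 0.82, adjusted p = 0.064) did not pass. Mest, an imprinted hydrolase gene, measured 8.61, 8.55 and 7.90 in tumours against 10.54, 9.98 and 10.02 in GNPs (-1.83, SE 0.43, adjusted p = 0.00597), and Igf2bp3, which binds Igf2 mRNA, measured 5.87, 5.69 and 7.56 in tumours against 7.97, 8.17 and 8.18 in GNPs (-1.74, SE 0.30, adjusted p = 0.00035). Grb10, an imprinted adaptor that restrains insulin receptor signalling, measured 7.46, 6.75 and 8.38 in tumours against 10.93, 11.00 and 10.91 in GNPs (-3.42, SE 0.90, adjusted p = 0.0121), with a call that was lost without EP 2 (adjusted p = 0.0595). The imprinted gene Ndn was lower (-1.68, SE 0.51, adjusted p = 0.0292) but not without TF, GNP 1, GNP 2 or GNP 3 (adjusted p = 0.0742 to 0.178). The imprinted long RNA Meg3 had a difference of -2.47, but its 11 probe sets ran between -2.47 and 0.88.

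**Figure D2:**
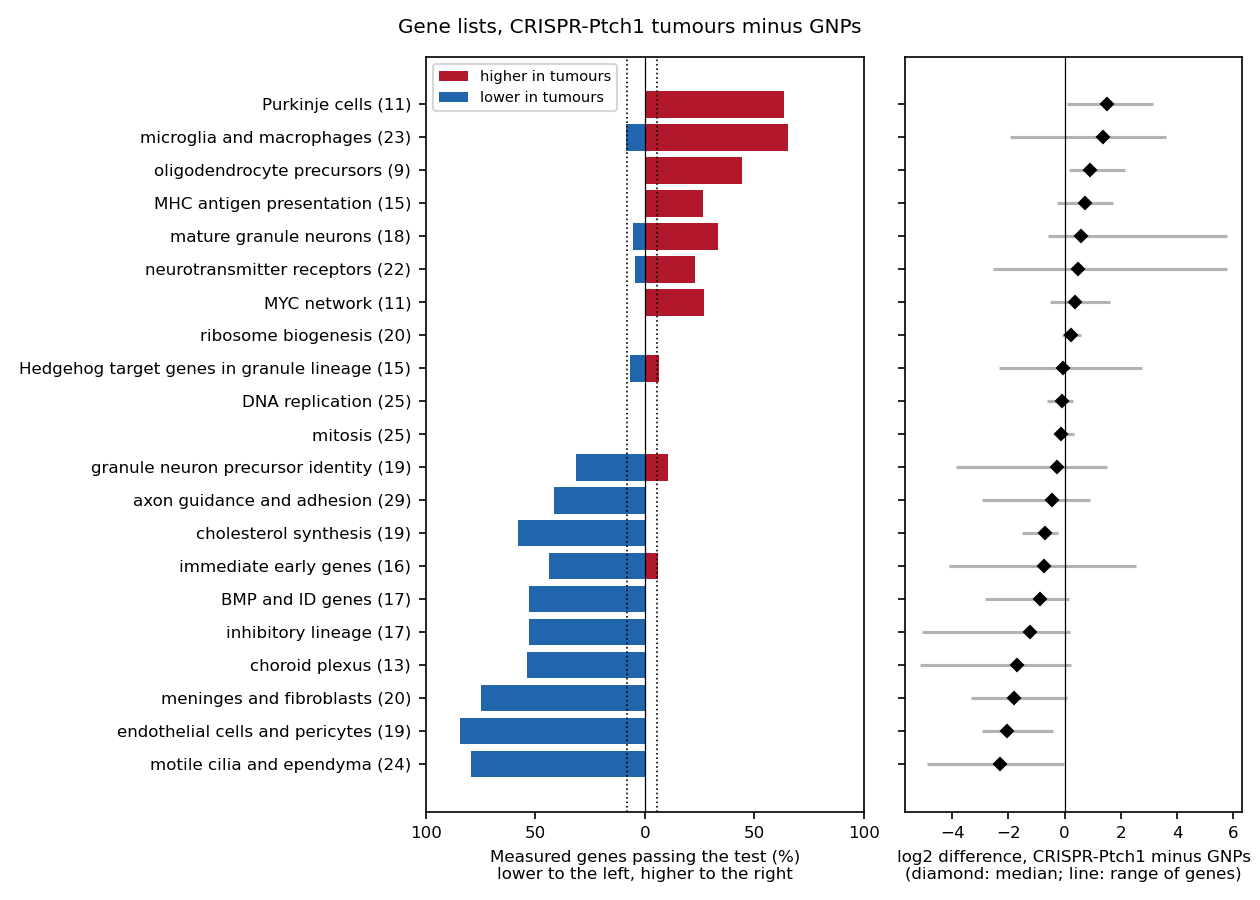
Left, the percentage of measured genes of each list that were called higher (to the right) or lower (to the left) in CRISPR-Ptch1 tumours, with dotted lines at the shares over all genes, 5.79% and 7.95%. Right, the median and range of the log2 differences, CRISPR-Ptch1 minus GNPs, for each list. Endothelial, meningeal and motile cilia genes stand at the low end and Purkinje and microglial genes at the high end, while mitosis and DNA replication lie near 0 with no call.

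No list was shifted as evenly as that of cholesterol synthesis. All 19 measured genes had every tumour below every GNP sample, against 19% of all genes, and 11 passed the test with none higher (median -0.68). Cholesterol modifies hedgehog ligands and binds Smo, and the enzymes of its synthesis are induced by the transcription factor SREBP-2 when sterols are scarce. Hmgcs1, which makes HMG-CoA at the start of the pathway, measured 11.42, 11.47 and 11.05 in tumours against 12.83, 12.88 and 12.80 in GNPs (-1.53, SE 0.16, adjusted p = 6.2e-07). The tumours lay close together. Dhcr7, which carries out the last step to cholesterol, measured 8.67, 8.75 and 9.17 in tumours against 10.36, 10.24 and 10.21 in GNPs (-1.41, SE 0.14, adjusted p = 3.06e-07), and Fdft1, squalene synthase, measured 11.00, 10.97 and 10.69 in tumours against 11.96, 11.81 and 11.75 in GNPs (-0.95, SE 0.15, adjusted p = 9.94e-05). Idi1 (-0.91) and Mvd (-0.66) of the isoprenoid steps were also lower, as were the regulator Srebf2, which encodes SREBP-2, at 8.30, 8.34 and 8.87 in tumours against 9.64, 9.19 and 9.26 in GNPs (-0.86, SE 0.20, adjusted p = 0.00512), and the sterol sensor Insig1, at 9.20, 9.43 and 9.67 in tumours against 10.56, 10.61 and 10.90 in GNPs (-1.25, SE 0.20, adjusted p = 0.000134). A further 4 calls depended on single arrays. Sqle, squalene epoxidase (-1.26), was not called without GNP 1 (adjusted p = 0.0633), and Cyp51, lanosterol demethylase (-0.95), not without GNP 1 (adjusted p = 0.0581). The methylsterol oxidase gene Msmo1 (-1.19) lost its call without EP 1, EP 2, GNP 1, GNP 2 or GNP 3 (adjusted p = 0.0507 to 0.144). Mevalonate kinase, Mvk (-0.48), lost it whichever array was left out. The TF tumour alone against GNPs gave 5 of these calls. The mean over the list was 9.20 to 9.35 in the 3 CRISPR-Ptch1 tumours, 9.21 in MERP and 9.12 in Ptch1+/- tumours, and 9.98 to 10.16 in the GNPs.

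**Figure D3:**
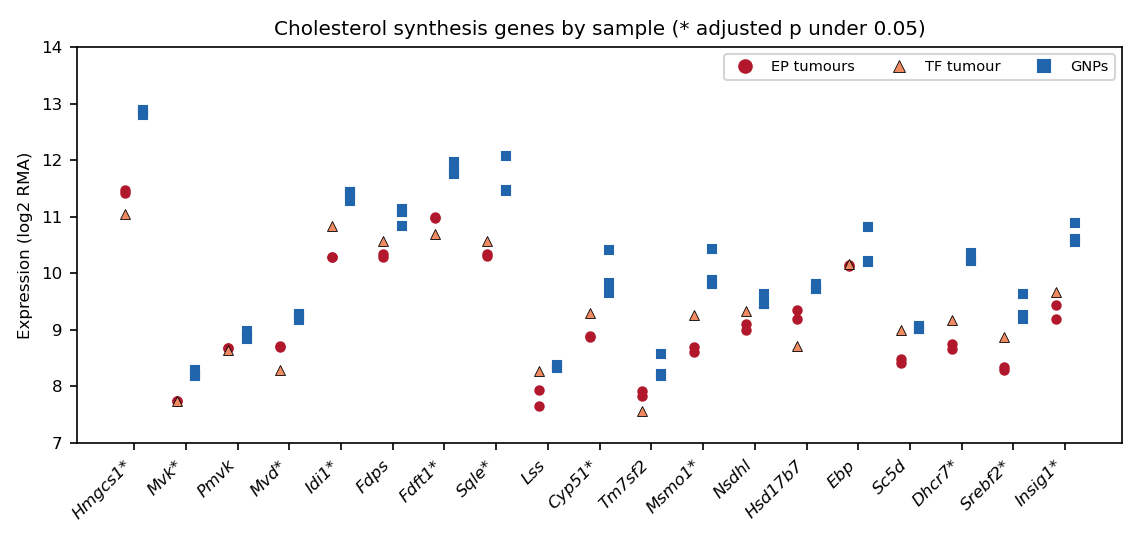
Log2 RMA expression of the 19 cholesterol synthesis genes in each CRISPR-Ptch1 tumour (circles EP, triangles TF) and each GNP sample (squares). An asterisk marks the 11 genes that passed the test. In every gene all 3 tumours lie below all 3 GNP samples.

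Because these genes lay lower together, their promoters were read from the RefSeq promoter table (build GRCm38.p6), which gives for each gene a window of 300 bases around its start and held 16 of the 19 genes. CCAAT, the letters bound by NF-Y, stood on either strand in a window of all 16, against 41.1% of the 27025 genes of the table when any window of a gene counts, and CACCCCAC, the core of the sterol regulatory element of the LDL receptor, in that of Hmgcs1 alone, against 3.3% of genes. By single windows CCAAT stood in 16 of 19 (84.2%), against 37.4% of 32851. The letters were chosen after other motifs had been searched as well. The 2 promoters shown are those of the most reduced enzyme, which held both motifs, and of Insig1, with both motifs in capitals on either strand (ATTGG is CCAAT read from the other strand).
Hmgcs1 (chr13:119690101-119690400, plus strand): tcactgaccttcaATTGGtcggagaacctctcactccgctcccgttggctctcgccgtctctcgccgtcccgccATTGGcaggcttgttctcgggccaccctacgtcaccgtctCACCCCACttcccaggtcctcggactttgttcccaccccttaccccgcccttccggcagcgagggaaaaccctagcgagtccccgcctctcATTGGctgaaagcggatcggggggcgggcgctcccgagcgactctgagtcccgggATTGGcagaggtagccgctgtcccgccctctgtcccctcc
Insig1 (chr5:28071162-28071461, plus strand): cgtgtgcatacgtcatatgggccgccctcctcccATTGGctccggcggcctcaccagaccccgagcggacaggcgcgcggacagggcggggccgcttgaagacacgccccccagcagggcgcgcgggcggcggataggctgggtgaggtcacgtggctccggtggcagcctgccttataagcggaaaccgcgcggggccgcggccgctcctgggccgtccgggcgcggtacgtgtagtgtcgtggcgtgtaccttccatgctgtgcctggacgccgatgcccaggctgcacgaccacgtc
A match describes the letters and is no measurement of binding.

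Glial genes were split by cell type. Oligodendrocyte precursor genes rose at 4 of 9 members with none lower (median 0.92), and the mean over the list was 9.37 to 9.72 in tumours and 8.45 to 8.54 in GNPs. Olig2, a factor of this lineage that hedgehog-driven tumour cells can also express, measured 8.71, 7.98 and 9.55 in tumours against 7.22, 7.05 and 7.21 in GNPs (1.59, SE 0.38, adjusted p = 0.00631). Olig1 (11.68, 11.17 and 11.60 in tumours against 9.30, 9.32 and 9.36 in GNPs) was about 2 units higher in every tumour, a difference of 2.16 (SE 0.60, adjusted p = 0.0177) that was lost without EP 1 or GNP 1 (adjusted p = 0.0542 to 0.0658). Sox10 measured 8.50, 8.14 and 8.53 in tumours against 7.28, 7.55 and 7.59 in GNPs (0.92, SE 0.20, adjusted p = 0.00286) and the membrane protein gene Lhfpl3 9.58, 9.08 and 9.61 in tumours against 7.54, 7.56 and 7.62 in GNPs (1.85, SE 0.39, adjusted p = 0.00226). None of 11 myelin genes was called higher and 1 was lower, Cldn11, a tight-junction gene of myelin and meninges (-2.21, lost without TF or GNP 1 with an adjusted p = 0.0745 to 0.0983). The median of the myelin list was 0.38, and 8 of its 11 differences were above 0. Its mean was 7.92 and 8.03 in EP and 6.71 in TF, against 7.24 to 7.40 in GNPs.

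Of 14 genes of astrocytes and Bergmann glia 3 were higher and 2 lower (median 0.19). S100b, a calcium-binding protein, measured 10.85, 11.11 and 12.76 in tumours against 8.46, 8.67 and 8.26 in GNPs and was highest in TF (3.11, SE 0.57, adjusted p = 0.000556). Acsbg1, an acyl-CoA synthetase of astrocytes, measured 9.58, 9.60 and 8.42 in tumours against 7.11, 7.60 and 7.26 in GNPs (1.88, SE 0.30, adjusted p = 0.00012), and the glutamate transporter Slc1a2 rose slightly (0.71, lost without EP 1, TF, GNP 2 or GNP 3 with an adjusted p = 0.0652 to 0.233). Gdf10, a Bergmann glia ligand, measured 8.57, 8.48 and 8.0 in tumours against 11.56, 11.73 and 11.05 in GNPs (-3.09, SE 0.44, adjusted p = 3.59e-05), and the gap junction gene Gja1 was lower (-1.50, lost without TF or GNP 1 with an adjusted p = 0.065 to 0.0653). Among 16 neural stem cell and radial glia genes 1 was higher and 3 lower. Sox1, a neural progenitor factor, measured 9.67, 9.09 and 10.55 in tumours against 8.11, 8.55 and 8.32 in GNPs (1.45, SE 0.29, adjusted p = 0.00149). Tnc, a matrix glycoprotein, measured 7.18, 7.41 and 6.64 in tumours against 9.69, 9.42 and 8.75 in GNPs (-2.21, SE 0.37, adjusted p = 0.00023), and the intermediate filament gene Vim was lower in every tumour (-1.20, SE 0.26, adjusted p = 0.00285), with the TF tumour nearest to the GNPs.

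Microglia and macrophage genes were higher in tumours at 15 of 23 members and lower at 2 (median 1.35), and the mean over the list was 8.17 to 9.29 in tumours and 7.38 to 7.64 in GNPs. Lyz2, lysozyme of myeloid cells, measured 11.45, 11.86 and 10.98 in tumours against 8.24, 8.21 and 8.64 in GNPs (3.07, SE 0.40, adjusted p = 9.88e-06). The protease gene Ctss measured 12.01, 12.06 and 11.67 in tumours against 9.50, 9.16 and 9.44 in GNPs (2.55, SE 0.40, adjusted p = 9.92e-05) and the integrin subunit gene Itgb2 measured 8.27, 8.10 and 6.91 in tumours against 5.05, 4.91 and 5.46 in GNPs (2.62, SE 0.40, adjusted p = 8.56e-05). TF was lowest of the tumours in all 3 genes and still above the GNPs. The complement genes C1qa, C1qb and C1qc rose by 2.42, 2.28 and 2.29, and the receptor genes Trem2 and Tyrobp by 1.35 and 2.16. Mrc1, a mannose receptor, and Cd163, a haemoglobin scavenger receptor, both of macrophages at brain borders, went the other way. Cd163 measured 5.09, 4.54 and 3.90 in tumours against 5.97, 6.54 and 6.84 in GNPs (-1.94, SE 0.32, adjusted p = 0.000201). Mrc1 measured 7.18, 6.77 and 5.16 in tumours against 8.18, 7.80 and 8.20 in GNPs (-1.70, SE 0.44, adjusted p = 0.0117) and lost its call without TF (adjusted p = 0.0809). Among the weaker members P2ry13 was not called without EP 1, EP 2 or GNP 2 (adjusted p = 0.0713 to 0.107), and Itgam not without EP 1, EP 2, GNP 1, GNP 2 or GNP 3 (adjusted p = 0.0666 to 0.254). Laptm5 lost its call without EP 1, EP 2, GNP 1 or GNP 2 (adjusted p = 0.0667 to 0.123), and Apoe without EP 1, EP 2 or GNP 3 (adjusted p = 0.0523 to 0.0652). With the TF tumour alone against GNPs 6 members were higher and 2 lower.

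Several genes of myeloid cells stood among the 15 most increased. Aif1, which encodes the microglial protein Iba1, measured 9.66, 9.73 and 8.80 in tumours against 5.20, 6.0 and 6.22 in GNPs (3.59, SE 0.33, adjusted p = 9.4e-08). Gpnmb, a glycoprotein of phagocytes, measured 10.17, 10.22 and 9.21 in tumours against 5.91, 5.58 and 6.44 in GNPs (3.89, SE 0.41, adjusted p = 7.74e-07), and Cst7, a cystatin of activated microglia, measured 9.90, 9.34 and 6.92 in tumours against 4.80, 4.51 and 4.80 in GNPs (4.02, SE 0.77, adjusted p = 0.000839). Lcn2, a siderophore-binding protein of inflammation, measured 11.24, 10.87 and 5.15 in tumours against 5.11, 4.92 and 4.64 in GNPs, so that its call (4.20, SE 1.17, adjusted p = 0.0178) rested on the EP tumours, and it was lost without EP 1, EP 2 or GNP 3 (adjusted p = 0.0601 to 0.13). The neutrophil chemokine gene Cxcl5 measured 8.35, 7.57 and 5.85 in tumours against 3.02, 3.10 and 3.07 in GNPs (4.19, SE 0.75, adjusted p = 0.000447).

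Of 15 genes of MHC antigen presentation 4 were higher and none lower (median 0.73). Without overlap 12 lay above GNPs, against 17.1% of all genes. Psmb8, an immunoproteasome subunit, measured 7.79, 8.02 and 7.91 in tumours against 6.37, 6.25 and 6.39 in GNPs (1.57, SE 0.17, adjusted p = 1.12e-06), and H2-DMa, which loads peptides on class II molecules, measured 6.79, 7.29 and 6.90 in tumours against 5.49, 5.64 and 5.92 in GNPs (1.31, SE 0.26, adjusted p = 0.00142). Psmb9 (0.69) and the class I transactivator Nlrc5 (1.12) were not called without EP 1, EP 2, TF, GNP 1, GNP 2 or GNP 3 (adjusted p = 0.0548 to 0.134) for Psmb9 and without TF, GNP 1, GNP 2 or GNP 3 (adjusted p = 0.0749 to 0.168) for Nlrc5. Interferon-stimulated genes gave 2 higher and 1 lower of 15. The antiviral GTPase Mx1 (0.81) was not called without TF or GNP 1 (adjusted p = 0.0627 to 0.0722), and the membrane protein gene Ifitm3 (1.23) not without EP 1, EP 2, GNP 1, GNP 2 or GNP 3 (adjusted p = 0.0503 to 0.12). Xaf1 (-1.15) lost its call without EP 1, TF or GNP 1 (adjusted p = 0.05 to 0.105). The other probe set of Xaf1 had a difference of 1.55. None of 9 lymphocyte genes was called, and 4 of them were near background in tumours and 5 in GNPs.

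**Figure D4:**
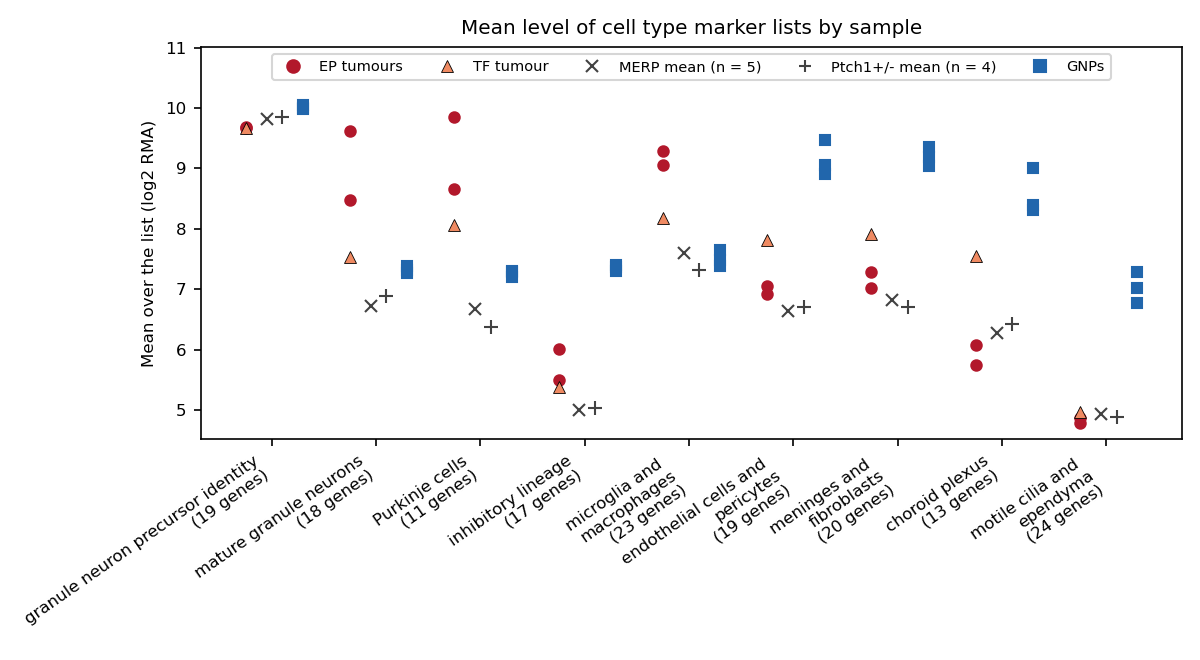
Mean log2 RMA expression over each gene list in each CRISPR-Ptch1 tumour (circles EP, triangle TF) and each GNP sample (squares), with the means of the MERP and Ptch1+/- tumours as further symbols. Vascular, meningeal, choroid plexus and motile cilia lists lie higher in the GNPs than in every tumour, and the mature granule and Purkinje lists spread widely among the 3 tumours.

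Vascular, meningeal and choroid plexus genes were lower in tumours. Of 19 endothelial and pericyte genes 16 were lower, of 20 meningeal and fibroblast genes 15, and of 13 choroid plexus genes 7, with none higher. Kdr, the VEGF receptor of endothelium, measured 7.41, 7.33 and 8.12 in tumours against 10.85, 10.21 and 10.22 in GNPs (-2.81, SE 0.37, adjusted p = 1.19e-05), and Slc6a13, a transporter of the meninges, measured 5.51, 5.91 and 5.56 in tumours against 9.12, 9.02 and 8.86 in GNPs (-3.34, SE 0.18, adjusted p = 3.54e-11). The choroid plexus folate receptor Folr1 measured 5.30, 5.10 and 6.82 in tumours against 9.70, 9.05 and 9.13 in GNPs (-3.56, SE 0.41, adjusted p = 2.36e-06), with the TF tumour above the EP tumours. Kcne2, a choroid plexus potassium channel subunit, measured 3.42, 3.63 and 6.40 in tumours against 9.68, 8.72 and 8.50 in GNPs (-4.48, SE 0.73, adjusted p = 0.000172), and the serotonin receptor Htr2c, also of this tissue, measured 3.75, 4.12 and 7.12 in tumours against 10.36, 9.39 and 9.33 in GNPs (-4.70, SE 0.98, adjusted p = 0.00193). The mean over the endothelial list was 6.92 to 7.81 in tumours and 8.90 to 9.46 in GNPs, over the meningeal list 7.03 to 7.91 in tumours and 9.04 to 9.35 in GNPs, and over the choroid plexus list 5.74 to 7.55 in tumours and 8.31 to 9.01 in GNPs. In each list the TF tumour had the highest mean of the tumours. For choroid plexus it was 7.55 in TF, against 6.07 in EP 1 and 5.74 in EP 2. Markers of these cell types were thus measured in the samples labelled as granule neuron precursors, and their part in other differences was not tested.

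Motile cilia genes fell at 19 of 24 members with none higher. Their median difference of -2.30 was the lowest of the lists, and the mean over the list was 4.78 to 4.96 in tumours and 6.78 to 7.28 in GNPs. Such cilia beat on ependymal and choroid plexus cells, whereas granule neuron precursors carry a primary cilium that does not beat. Foxj1, the master factor of motile cilia, measured 5.72, 5.87 and 5.52 in tumours against 8.38, 7.79 and 8.09 in GNPs (-2.38, SE 0.15, adjusted p = 2.5e-10). Dynlrb2, a dynein light chain, measured 4.65, 4.92 and 5.19 in tumours against 10.38, 8.90 and 10.15 in GNPs (-4.89, SE 0.40, adjusted p = 2.06e-08). Enkur, a calmodulin-binding protein of sperm and cilia, measured 4.36, 3.71 and 5.05 in tumours against 8.90, 8.21 and 8.61 in GNPs (-4.20, SE 0.55, adjusted p = 1.19e-05). In both genes GNP 2 was lowest of the GNPs. Pifo, a cilia gene, measured 5.11, 4.88 and 5.27 in tumours against 9.39, 8.84 and 9.06 in GNPs (-4.01, SE 0.28, adjusted p = 1.44e-09). In each gene the tumours were low and lay far below every GNP sample. The calls of Ccdc40 (-0.79) and Hydin (-0.40) were lost without EP 1, EP 2, GNP 1, GNP 2 or GNP 3 (adjusted p = 0.0687 to 0.182) for Ccdc40 and whichever array was left out for Hydin. The 22 genes of the primary cilium and intraflagellar transport had a median difference of -0.00, with 1 higher and 1 lower. The share called was 9.09%, against 13.7% of all genes. The lower gene was Tctn2, of the ciliary transition zone, at 5.87, 5.94 and 6.48 in tumours against 7.49, 7.33 and 7.25 in GNPs (-1.26, SE 0.23, adjusted p = 0.00053), and the higher one Ift140 (0.41), which was lost without EP 1, EP 2, GNP 1, GNP 2 or GNP 3 (adjusted p = 0.0626 to 0.169).

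The promoters of the motile cilia genes were read in the same way, and the table held 21 of the 24. GTTGCCA or GTTGCTA, which form an arm of the X-box bound by RFX factors, stood on either strand in 11 of 21 (52.4%), against 8.77% of the 27025 genes, again counting any window of a gene. By single windows the shares were 12 of 23 (52.2%) and 7.63% of 32851. GTTGCTA alone stood in 8 (38.1%, against 4.28%) and GTTGCCA alone in 5 (23.8%, against 5.02%), with Hydin and Pifo holding both. These letters too were chosen after others had been searched. The promoters of the 2 most reduced members that hold a match and have 1 window in the table are shown, with the matches in capitals (TAGCAAC is GTTGCTA read from the other strand).
Dynlrb2 (chr8:116504765-116505064, plus strand): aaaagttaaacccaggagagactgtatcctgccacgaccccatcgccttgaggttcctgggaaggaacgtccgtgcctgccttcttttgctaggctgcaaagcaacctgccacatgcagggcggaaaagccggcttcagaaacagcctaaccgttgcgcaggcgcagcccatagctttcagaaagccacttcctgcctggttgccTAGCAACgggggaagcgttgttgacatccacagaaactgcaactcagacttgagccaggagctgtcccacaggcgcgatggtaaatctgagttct
Enkur (chr2:21205316-21205615, minus strand): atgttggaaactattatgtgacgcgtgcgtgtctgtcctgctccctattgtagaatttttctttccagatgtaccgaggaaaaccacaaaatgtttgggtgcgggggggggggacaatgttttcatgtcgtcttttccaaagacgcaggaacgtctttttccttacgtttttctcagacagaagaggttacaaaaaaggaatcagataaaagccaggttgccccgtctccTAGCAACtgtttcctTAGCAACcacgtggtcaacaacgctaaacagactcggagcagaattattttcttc
The matches describe letters only, as above.

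Axon guidance and adhesion genes were lower at 12 of 29 members with none higher (median -0.45). Efnb2, an ephrin ligand, measured 8.17, 8.72 and 7.87 in tumours against 10.84, 10.33 and 10.23 in GNPs (-2.21, SE 0.29, adjusted p = 1.35e-05), and Slit2, a repellent ligand, measured 5.17, 6.22 and 6.98 in tumours against 9.29, 8.91 and 8.80 in GNPs (-2.88, SE 0.56, adjusted p = 0.001). Cxcl12, the chemokine that holds precursors at the meningeal surface, measured 9.29, 9.66 and 8.35 in tumours against 11.55, 11.57 and 11.36 in GNPs (-2.39, SE 0.37, adjusted p = 9.66e-05). The semaphorin Sema3a (-1.65) and the plexin Plxnb2 (-1.16) were lower as well. Outside this list Sema3e, another semaphorin, was among the most increased genes, at 9.56, 9.24 and 9.81 in tumours against 5.88, 5.34 and 5.65 in GNPs (3.91, SE 0.54, adjusted p = 2.46e-05). The netrin receptor Unc5b (-0.97) was not called without EP 1, TF, GNP 1, GNP 2 or GNP 3 (adjusted p = 0.0554 to 0.233), and the semaphorin Sema6d (-1.08) not without EP 1, EP 2, GNP 1 or GNP 2 (adjusted p = 0.055 to 0.135). Nrp1 (-1.44) lost its call without EP 1, EP 2 or GNP 1 (adjusted p = 0.0636 to 0.0703), and the ephrin Efnb1 (-0.72) without EP 1, EP 2 or GNP 1 (adjusted p = 0.0662 to 0.0771).

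The remaining genes among the 15 most increased included Krt12, a keratin of the corneal epithelium, at 9.31, 9.20 and 7.54 in tumours against 3.80, 3.86 and 3.82 in GNPs (4.86, SE 0.79, adjusted p = 0.00015). Rprml, a homologue of the cell cycle gene Reprimo, measured 9.57, 8.73 and 10.50 in tumours against 5.0, 5.59 and 5.75 in GNPs (4.15, SE 0.69, adjusted p = 0.000187). The vesicle protein gene Tmem163 measured 10.70, 10.47 and 9.60 in tumours against 6.46, 6.24 and 5.71 in GNPs (4.12, SE 0.42, adjusted p = 3.75e-07). Krt12 was near background in GNPs and not in any tumour. Fam107a, an actin-associated gene, was higher by 4.02 (SE 1.02, adjusted p = 0.00939) but not without EP 2 (adjusted p = 0.0588). Those among the 15 most decreased included Ccn3, a matricellular protein, at 5.43, 5.19 and 4.09 in tumours against 9.30, 10.12 and 9.78 in GNPs (-4.83, SE 0.62, adjusted p = 9.88e-06). Mmrn1, multimerin of endothelium, measured 3.58, 3.70 and 4.01 in tumours against 7.90, 7.64 and 7.82 in GNPs (-4.02, SE 0.15, adjusted p = 3.88e-13). In both genes the tumours lay below 5.5 and the GNPs above 7.5. Heph, a copper-dependent ferroxidase, measured 3.73, 3.43 and 3.89 in tumours against 7.56, 7.67 and 7.58 in GNPs (-3.92, SE 0.19, adjusted p = 5.71e-12). Rps4l, annotated as a transcribed pseudogene, measured 6.10, 6.37 and 6.63 in tumours against 10.27, 10.47 and 10.68 in GNPs (-4.11, SE 0.84, adjusted p = 0.00157). Meig1 (-4.15) and Tmem212 (-4.51), with Ecrg4 (-3.94), a secreted factor of choroid plexus, completed them.

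The EP and TF tumours differed from each other at 453 genes (2.49%), of which 302 (1.66%) were higher in EP and 151 (0.83%) higher in TF. This contrast rests on a lone TF array that is assumed to vary as the other groups do, and without EP 2 the count was 99. Delivery, Trp53 genotype and, per the study's methods, strain differ together between EP and TF and cannot be told apart. Of the 2500 genes called against GNPs 96 differed between EP and TF.

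Olig3, a bHLH factor of the rhombic lip, showed the largest of the called differences. It measured 10.73 and 11.07 in EP and 4.26 in TF, against 6.74, 6.22 and 6.33 in GNPs, a log2 difference of 6.64 (SE 0.83, adjusted p = 0.00017) for EP minus TF. The EP tumours were above and the TF tumour below the GNPs. Neurod4, another bHLH factor, measured 8.89 and 8.45 in EP and 5.52 in TF, against 7.77, 8.24 and 8.49 in GNPs (3.15, SE 0.73, adjusted p = 0.0246), and Camk4, a kinase of granule neurons, 10.67 and 11.75 in EP and 7.71 in TF, against 8.68, 9.03 and 9.12 in GNPs (3.50, SE 0.52, adjusted p = 0.000863). In each of these the TF tumour lay below every GNP sample. Shisa3, of the Shisa family of membrane proteins, measured 8.51 and 8.61 in EP and 4.33 in TF, against 4.68, 5.47 and 4.71 in GNPs (4.24, SE 0.86, adjusted p = 0.0102).

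Of the 10 genes with the largest difference towards TF, Usp18, Samd9l and Iigp1 are known to be induced by interferon. Usp18, which removes ISG15 from proteins, measured 4.91 and 5.0 in EP and 8.65 in TF, against 5.58, 5.17 and 5.29 in GNPs (-3.70, SE 0.72, adjusted p = 0.00822). Samd9l, an antiviral factor, measured 5.80 and 6.09 in EP and 10.55 in TF, against 7.58, 7.31 and 7.34 in GNPs (-4.61, SE 0.62, adjusted p = 0.000398). Iigp1, an immunity-related GTPase, measured 4.94 and 5.39 in EP and 8.55 in TF, against 4.93, 4.60 and 4.69 in GNPs (-3.39, SE 0.61, adjusted p = 0.00504). For Samd9l both EP tumours lay below and TF above the GNPs. Over the 15 interferon-stimulated genes the median of EP minus TF was -1.53, against -0.003 over all genes. The test of EP minus TF takes the spread of the lone TF array from the other groups. Among them Oasl2, an oligoadenylate synthetase-like gene, differed by -2.76 (SE 0.73, adjusted p = 0.0486) and Rsad2, viperin, by -2.03 (SE 0.53, adjusted p = 0.0449) in EP minus TF. Dll3, an inhibitory Notch ligand, measured 7.77 and 7.11 in EP and 11.38 in TF, against 8.70, 8.54 and 8.60 in GNPs (-3.95, SE 0.73, adjusted p = 0.00591). Hes1, a Notch and hedgehog target, measured 8.61 and 7.74 in EP and 10.16 in TF, against 8.21, 8.43 and 8.33 in GNPs (-1.99, SE 0.42, adjusted p = 0.0138). Pdlim3, a marker of hedgehog-driven medulloblastoma, measured 7.25 and 7.16 in EP and 10.92 in TF, against 9.13, 9.21 and 9.21 in GNPs (-3.72, SE 0.69, adjusted p = 0.00645). For Dll3, Hes1 and Pdlim3 the TF tumour was above all GNPs.

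**Figure D5:**
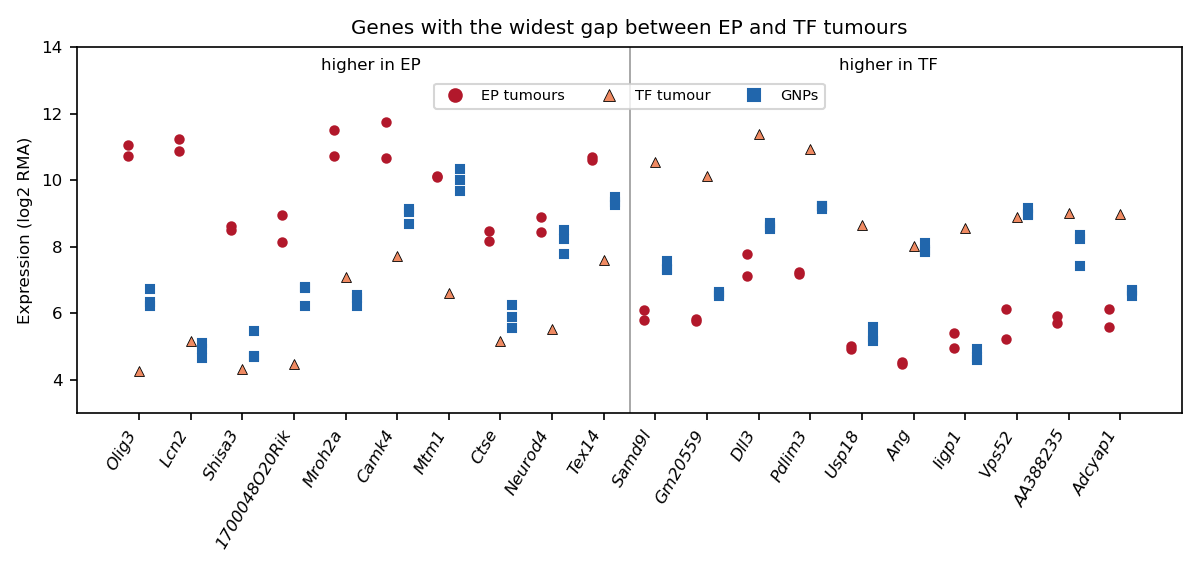
Log2 RMA expression of the 10 called genes with the largest difference towards EP (left) and the 10 with the largest towards TF (right), in each EP tumour (circles), the TF tumour (triangles) and each GNP sample (squares). Olig3 and Lcn2 are high in both EP tumours and low in TF, and Samd9l and Dll3 are highest in TF.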

How the data were processed

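RNA of each sample was hybridised to an Affymetrix whole-genome mouse array. The deposited values are log2 signals per probe set, made by the authors with RMA (background correction, quantile normalisation and median polish) in Affymetrix Expression Console 1.3.1; the sources used here do not state which arrays were normalised together. RMA brings array distributions together, so a shift shared by most genes cannot be seen. Of 45101 probe sets 34958 had 1 gene in the platform annotation, 932 several and 9211 none, and each of 18194 genes was represented by its brightest probe set, by the mean of all 23 arrays. Chromosomes and positions came from a RefSeq gene table, matched by Entrez identifier for 34754 probe sets.

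Groups came from the labels. Differences were fitted with limma 3.58.1 (R 4.3.3) in 1 model of 6 groups, with default eBayes and Benjamini-Hochberg adjustment over all genes. EP minus TF was fitted in a model of 7 groups. Scripts were tested on simulated data. Members and gene lists were chosen with earlier results of these data known. The text names the 15 most positive and 15 most negative called genes without overlap, Ptch1, list members chosen by size and role after their values were seen, and the 10 genes with the largest called difference of EP minus TF in each direction. For genes whose sign changed with another probe set rule, the other probe sets are given beside their values. Settings varied were array centring, repeated quantile normalisation, other probe set rules, a filter on dim genes, other limma settings, other sample sets, a replicate block, a 2-fold minimum and leaving out each array. A further 3 were added after seeing the data: centring on gene medians, the 4 blocked arrays without a block, and leaving out genes high in adult cerebellum. Same-numbered EP and GNP arrays showed no shared deviation (correlation 0.01 over 2 pairs), so the numbers were not taken to pair samples. The GTML, MERP, Ptch1+/- and adult cerebellum arrays entered the fit for the estimate of spread and are otherwise described only in part.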

Additional observations from a re-analysis of the deposited data

Results flagged for a closer look

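Given here are listed or named genes that passed the limma test of EP minus TF, with p-values adjusted over all genes. Each of them also passed against GNPs in EP alone or in TF alone. Genes that passed only EP minus TF are left out, so the genes given are not all that differed. Values are log2 differences of EP minus TF, so that positive values mean higher in EP. The lone TF array was assumed to vary as the other groups. The 10 genes of largest positive difference were Olig3 (6.64), Lcn2 (5.90), Shisa3 (4.24), 1700048O20Rik (4.07), Mroh2a (4.02), Camk4 (3.50), Mtm1 (3.49), Ctse (3.17), Neurod4 (3.15) and Tex14 (3.05). The 10 of largest negative difference were Samd9l (-4.61), Gm20559 (-4.36), Dll3 (-3.95), Pdlim3 (-3.72), Usp18 (-3.70), Ang (-3.50), Iigp1 (-3.39), Vps52 (-3.22), AA388235 (-3.19) and Adcyap1 (-3.14).

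Among genes of the granule lineage and rhombic lip the differences were Cbln3 (2.51), Gabrd (2.18), Fat2 (2.80), Kcnc1 (2.24), Reln (1.51), Cntn2 (2.58), L1cam (2.39), Neurod1 (1.90), Zic4 (1.31), Mfap4 (-2.94) and Eomes (2.70). Of the genes given, those of the synaptic vesicle and its release were all higher in EP. They were Cplx1 (1.13), Cplx2 (1.90), Rims1 (2.10), Snap25 (1.35), Syt2 (1.85) and Vamp2 (1.32). The microglial genes Cd14 (2.21), Cx3cr1 (1.38) and Itgam (1.76) were higher in EP as well. Interferon-stimulated and antigen presentation genes were higher in TF, namely Oasl2 (-2.76), Rsad2 (-2.03), Bst2 (-1.89), Mx1 (-1.08) and Tap1 (-0.92). In the signalling lists the differences were Cdon (1.65), Hes1 (-1.99), Kif3a (-0.92), Dkk2 (-1.51), Nkd1 (-1.87), Lgr5 (1.68) and Rnf43 (2.51). The vascular, choroid plexus, radial glia and fetal growth genes Abcc9 (-2.81), Aqp1 (-1.89), Vim (-1.20) and Igf2bp3 (-1.78) were higher in TF.

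The other groups of 4 or 5 arrays were not compared here, and groups of 3 arrays are too small for a test of single outlying samples.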

How the results depend on the processing

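The number of changed genes, 2500 with all arrays, was 1629 for the TF tumour alone, 1208 with a 2-fold minimum and 9211 with array weights, whose estimation did not converge. For higher genes these settings gave 602, 420 and 4403, against 1053, and for lower genes 788 with the 2-fold minimum and 4808 with array weights, against 1447. With dim genes left out, 11312 genes were tested and 928 were lower. Leaving out 1 array gave 1770 to 2567 changed, 662 to 1164 higher and 1096 to 1403 lower genes. Leaving out genes high in adult cerebellum gave 1947 changed genes. For EP minus TF, 453 genes with all arrays, array weights gave 2207 and leaving out 1 EP array 99 to 383. A replicate block over EP 1, EP 2, GNP 1 and GNP 2 gave 3561 changed, 1632 higher and 1929 lower genes, against 3040, 1352 and 1688 in the same arrays with no block. Counts under the settings not given here stayed within 1.5 times the first value. Centring on gene medians moved the share of higher calls to 51.4% against 42.1%.

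Among the 236 called genes of the lists and of the 15 most changed each way, 232 stayed called with centred arrays, 230 with repeated quantile normalisation, 219 with the most variable probe set, 214 with the mean of probe sets, 199 with only the compared arrays, 218 with the block and 136 with the TF tumour alone. Differences changed sign with the most variable probe set for Ptch1 (-0.066), Meg3 (0.88), Mga (-0.265), Rab3a (0.18) and Xaf1 (1.55), with the mean of probe sets for Xaf1 (0.20), and with the TF tumour alone for Itgam (-0.087) and Lgr5 (-0.082), where the cause was not tested beyond the choice of probe set or sample. Dim signals limit genes near the lower quartile of probe sets, where differences are compressed.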

Other observations

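Of 22 glycolysis and hypoxia genes 1 was higher and 3 lower, a share of 18.2% against 13.7% of all genes. Hk2, a hexokinase that hedgehog induces in precursors, measured 12.32, 11.67 and 11.82 in tumours against 9.96, 10.26 and 10.39 in GNPs (1.73, SE 0.20, adjusted p = 2.15e-06), with every tumour above every GNP sample. Adm, adrenomedullin, measured 5.83, 5.87 and 5.68 in tumours against 7.50, 7.20 and 7.52 in GNPs (-1.61, SE 0.41, adjusted p = 0.0099), Ndrg1, a stress-induced gene, was lower as well (-1.11, SE 0.26, adjusted p = 0.00451), and so was the glucose transporter Slc2a1 (-1.23, lost without EP 1, EP 2, GNP 1, GNP 2 or GNP 3 with an adjusted p = 0.0638 to 0.154). In the insulin-like growth factor axis 1 of 15 genes was higher and 4 lower. The adaptor Irs1 measured 13.01, 12.62 and 13.27 in tumours against 12.13, 12.04 and 11.82 in GNPs (0.97, SE 0.24, adjusted p = 0.00721), whereas the binding proteins Igfbp5 and Igfbp4 were lower, Igfbp5 at 9.14, 8.87 and 10.70 in tumours against 11.92, 11.50 and 11.42 in GNPs (-2.05, SE 0.49, adjusted p = 0.00623) and Igfbp4 at 8.48, 9.06 and 9.33 in tumours against 10.66, 10.36 and 10.50 in GNPs (-1.55, SE 0.34, adjusted p = 0.00293). Of 21 polycomb and DNA methylation genes 1 was higher and 2 lower, a share of 14.3% that was near the 13.7% of all genes. The de novo methyltransferase Dnmt3a measured 10.26, 10.22 and 10.26 in tumours against 9.64, 9.48 and 9.27 in GNPs (0.78, SE 0.18, adjusted p = 0.00396) and its homologue Dnmt3b 8.03, 7.94 and 8.14 in tumours against 9.00, 8.97 and 9.00 in GNPs (-0.95, SE 0.25, adjusted p = 0.0121), so that the pair moved in opposite directions without overlap. Uhrf1 was lower by -0.52 (SE 0.17, adjusted p = 0.0497), a call lost whichever array was left out. Of 16 DNA repair genes the kinase Atm alone was called (0.46, SE 0.13, adjusted p = 0.0187), and not without EP 1, TF, GNP 2 or GNP 3 (adjusted p = 0.0665 to 0.0911). Of 6 erythroid genes 2 were lower, namely Slc4a1 (-2.05) and Alas2 (-1.21).

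Sex-linked transcripts differed between the arrays and belong to no comparison. Xist measured 5.92, 13.19 and 5.87 in tumours against 13.20, 12.18 and 11.74 in GNPs. The Y-linked gene Eif2s3y measured 9.74, 3.59 and 9.13 in tumours against 9.43, 9.45 and 9.86 in GNPs. EP 2 thus had high Xist with a low Y-linked signal, EP 1 and TF the reverse, and the GNP samples had both at a high level. Whether GNP samples were pooled from several animals is not given in the sources used here.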
